A study of Mus musculus with 24 samples.

Results

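The proteasome is the protease complex that degrades ubiquitin-tagged proteins. The genes described here are its subunits, activators, inhibitor and assembly chaperones, taken as every mouse symbol that starts with Psma, Psmb, Psmc, Psmd, Psme, Psmf or Psmg followed by a number. Of 50657 genes in the files 48 matched, and 46 were kept at a mean of at least 1 CPM over all libraries. CPM are counts scaled to a common library size after TMM, a correction for differences in library composition. The genes left out were Psma8 (0.54 CPM), a testis subunit, and Psmb11 (0.37 CPM), a thymus subunit. The lowest ones kept were the assembly chaperone Psmg3 (1.05 CPM) and the immunoproteasome subunit Psmb9 (1.48 CPM). Psmg3 then failed the low-count filter of the test, so 45 genes were tested among 13204.

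RNA was measured by bulk sequencing in livers of individual mice, with 3 mice in each of 8 groups and 24 libraries in all. KO mice lack the growth factor receptor gene Egfr in hepatocytes alone, and are set against wild type mice (WT). Livers of each genotype were taken at 0, 1, 3 and 12 h of an overdose experiment with acetaminophen, a drug that injures hepatocytes through a reactive metabolite, at 500 mg/kg. The groups are therefore KO at 0, 1, 3 and 12 h and WT at 0, 1, 3 and 12 h. The labels do not state how the 0 h mice were handled, which Cre line was used, the age of the mice or the time of day, and no untreated mice at later times are among the groups, so the drug and the hours that passed cannot be told apart. Other liver cells keep the gene in KO, and in bulk tissue fewer cells of a type and less RNA per cell cannot be told apart.

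The libraries held between 3.54 and 7.58 M gene counts, of which the proteasome genes took 4063 to 11276 counts. In 24 libraries the 7 hepatocyte markers, Alb first, summed to 27784 to 52200.5 CPM, so that the labelled tissue carries its markers. Egfr stood below every WT library of the same time in all KO libraries but 1. In these KO libraries it ran from 43.0 CPM to 271 CPM, the latter in KO 3 h replicate 3. That value is above the WT 12 h livers, which had 203 to 263 CPM. With 335 CPM of Egfr, the library labelled KO 1 h replicate 1 lay among the WT 1 h livers, at 332, 407 and 400.2 CPM, so it goes against its label. The counts of calls at 1 h and the main counts of signs are given with and without it. Other counts at 1 h include it. WT 3 h replicates 2 and 3 also stand apart, with 1100.1 and 735 CPM of the acute phase gene Saa1, while the other 22 libraries had at most 195 CPM. Changes of single genes from 0 h to 3 h in WT are given with and without that pair. The 12 h libraries differ from all others in composition. Mitochondrial ribosomal RNA took 44.8% to 50.4% of their gene counts and at most 43.2% in any other library, their TMM factors were 0.814 to 0.971 and those of the other libraries 1.00 or more, and they held 3.54 to 4.74 M gene counts. How much of the 12 h changes moves with this was not tested beyond the scalings: with TMM 6 proteasome genes were called at 12 h in each genotype, and 9 in KO and 12 in WT by library size alone without ribosomal RNA loci.

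As background, the core particle (20S) is a barrel of stacked rings. Alpha subunits form the outer rings and gate the entrance, and beta subunits form the inner rings, where Psmb5, Psmb6 and Psmb7 carry the cutting sites. The regulatory particle (19S) caps the barrel: its base holds ATPases that unfold the substrate, and its lid removes the ubiquitin chain. In immune cells and under interferon, Psmb8, Psmb9 and Psmb10 replace the standard cutting subunits and make peptides for presentation on MHC class I. When proteasomes are inhibited, the transcription factor NRF1 (gene Nfe2l1) raises the subunit genes together through antioxidant response elements in their promoters.

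Kept genes comprised 7 alpha subunits, 7 constitutive beta subunits, 9 subunits of the base, 8 of the lid, 3 of the immunoproteasome, 4 activators (Psme1, Psme2, Psme3, Psme4), the inhibitor Psmf1 and 7 assembly chaperones. Summed over all 46, the level ran from 1239 to 1589 CPM in the 24 libraries. In KO livers it averaged 1476 ± 100.3 CPM at 0 h, 1331 ± 60.1 CPM at 1 h, 1392 ± 28.7 CPM at 3 h and 1437 ± 73.4 CPM at 12 h (SD, n = 3 each). In WT livers it averaged 1419 ± 112 CPM at 0 h, 1487 ± 106 CPM at 1 h, 1324 ± 77.0 CPM at 3 h and 1348 ± 38.4 CPM at 12 h (SD, n = 3 each), with 1387 CPM in WT 3 h replicate 1, the WT 3 h liver outside the pair that stands apart. The means of the 8 groups thus lay within a narrow band, and no group stood apart from all the others.

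**Figure D1:**
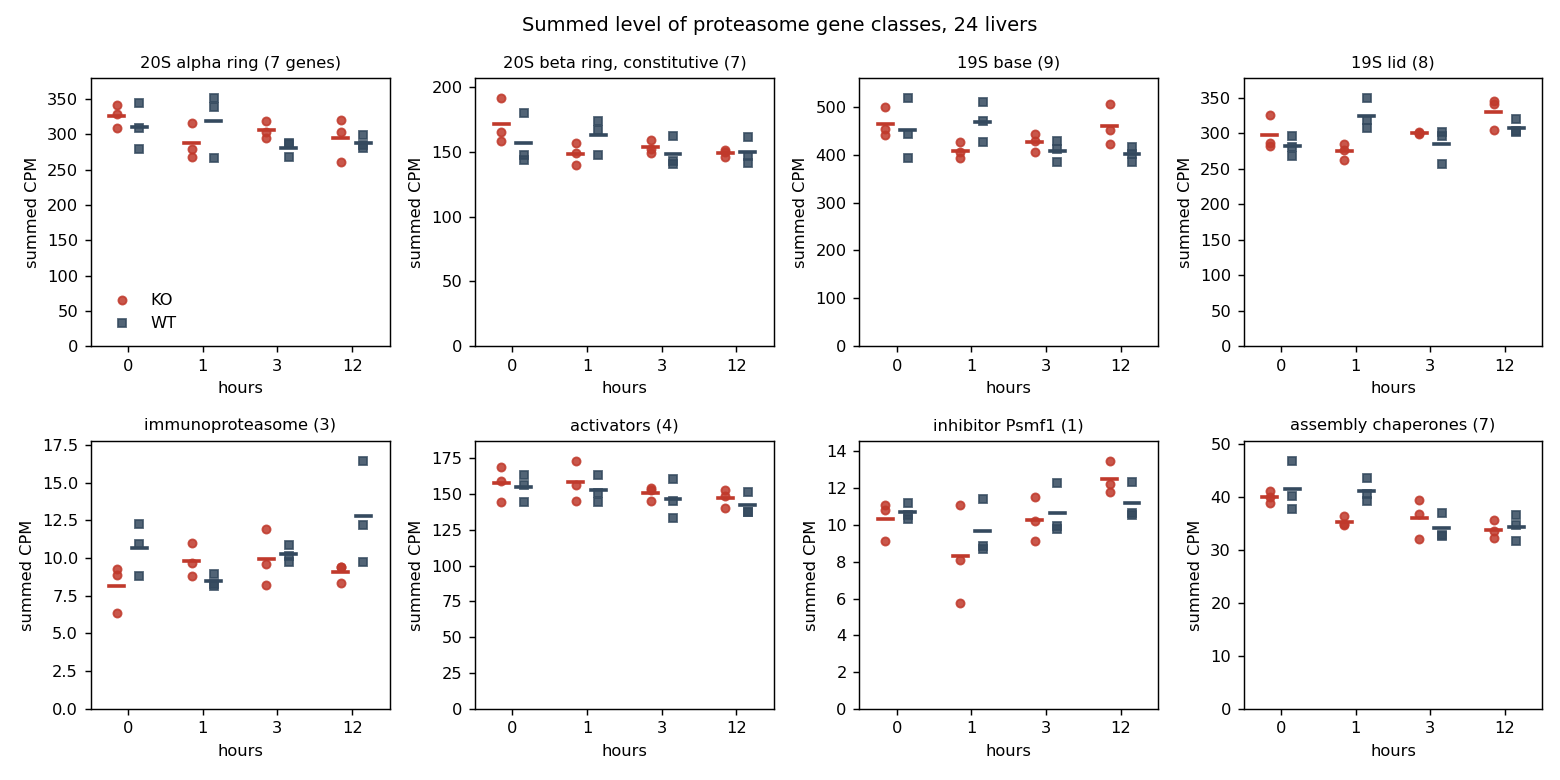
Summed CPM (vertical axes, from 0) of 8 classes of proteasome genes at 0, 1, 3 and 12 h; red circles are KO livers, dark squares WT livers, bars the means of 3 mice. At 1 h the lid sum lies between 262 and 285 CPM in KO and between 307 and 349 CPM in WT, and the immunoproteasome sum stayed at or below 16.4 CPM in every liver.

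Levels of different genes can be compared only per length. Per kb of exon (lengths from GENCODE M21, an annotation of another build than the counts) the highest was Psma4, an alpha subunit, at 55.7 CPM per kb averaged over 24 libraries. Constitutive Psmb6 (caspase-like site) stood at 34.1 and Psmb7 (trypsin-like site) at 29.7 CPM per kb, whereas their immune counterparts Psmb9 and Psmb10 stood at 0.879 and 2.06 CPM per kb. For the chymotrypsin-like site the order was not so: immune Psmb8 was at 3.42 and constitutive Psmb5 at 3.26 CPM per kb, with library ranges that overlapped (1.79 to 5.12 and 1.09 to 4.93). Psmb5, Psmb6, Psmb7 and Psma5 have near-identical pseudogenes and Psme2 a near-identical copy, Psme2b, which can share reads with them, so their levels are uncertain and can be too low. Psma3, Psma4, Psma6, Psmb5, Psmb7, Psmc5, Psmd1, Psmd10, Psmd13, Psme1, Psme4 and Psmf1 overlap another gene's span, and reads falling on both genes may not be counted for either. Reads with a strand fell on the gene's own strand for 84.8% or more in each kept gene.

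The first question was how the genes changed from 0 h at 1, 3 and 12 h. Most did not pass the test (edgeR quasi-likelihood F-test, two-sided, Benjamini-Hochberg adjusted over all 13204 genes, threshold 0.05). All changes are log2 fold changes, given with their SE and the adjusted p of this test. Over the 3 KO responses and the 3 WT responses, 11 of 45 genes passed in at least 1, and 34 passed in none. At 12 h 6 of 45 passed in KO livers (4 higher, 2 lower, 13.3%), against 28.8% of all genes tested (15.1% higher, 13.7% lower). In WT livers 6 of 45 passed at 12 h (4 higher, 2 lower, 13.3%), against 25.6% of all genes (13.4% higher, 12.2% lower). At 3 h 1 of 45 passed in KO, a lower one, against 9.95% of all genes (4.84% lower), and 1 of 45 in WT, also lower, against 14.1% (6.85% lower). At 1 h none passed in KO, against 7.58% of all genes, and 1 in WT, a higher one, against 8.09% (4.09% higher). For KO at 1 h, 9 genes had an unadjusted p under 0.05 in edgeR, a threshold at which the share of all genes was not computed, and DESeq2 also called none. In this fit, scaled by TMM, the share of members that passed was below that of all genes in each of the 6 responses. Library size alone reversed the order at 12 h. There 18 of 45 passed in KO, against 36.4% of all genes, and 22 in WT, against 40.3%. It was also reversed at WT 3 h by library size alone without ribosomal RNA loci, with 9 of 45 against 16.3%. With no low-count filter 6 members passed at KO 12 h, against 10.1% of all genes. All libraries of a later time lay above the 0 h libraries for 5 genes at KO 12 h and for 5 at WT 12 h, against 20.5% and 19.8% of all genes. They lay below for 8 and 7 genes, against 20.6% and 20.1%.

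The median change at 12 h was -0.14 (log2) over the 45 genes in KO and -0.080 in WT, beside -0.0029 and -0.011 over all genes tested. Precision was sufficient to bound most changes. The 95% interval lay within 1 log2 unit on either side of 0 for 39 of 45 genes in KO at 12 h and for 41 of 45 in WT. In KO the exceptions were Psmd10, Psmb8, Psmb9, Psmb5, Psmg4 and Psmb10, and in WT they were Psmd10, Psmb9, Psmg4 and Psmb10, all but Psmb8 among the genes below 4 CPM on average. Among the 34 tested members at 10 CPM or more, the highest of the 8 group means was 1.33 times the lowest in the median gene, with a range of 1.13 (Psma3) to 1.60 (Psmd4). Over 5599 genes tested at that level the median ratio was 1.44.

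**Figure D2:**
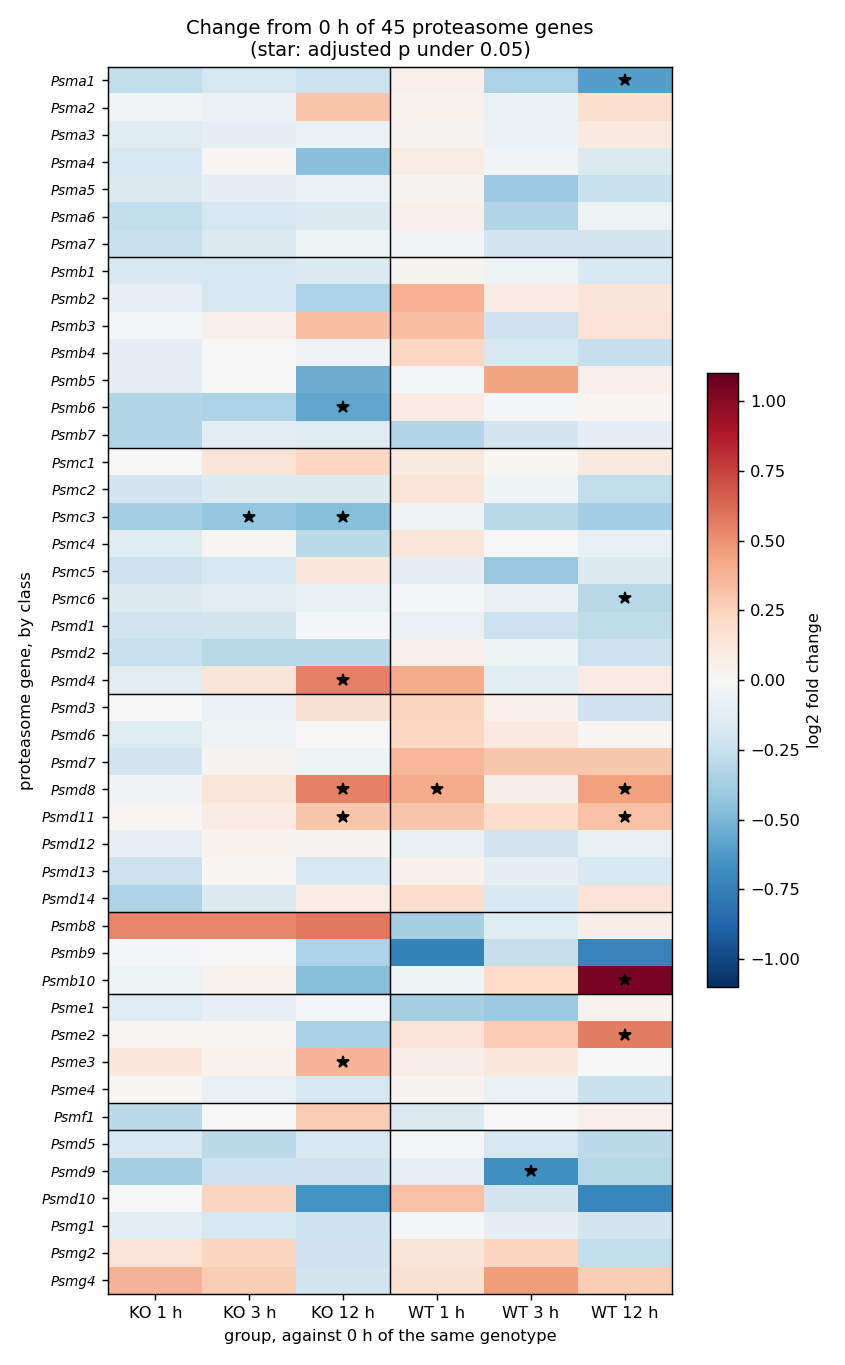
Log2 fold change from 0 h of the same genotype (colour, red higher, blue lower) for 45 proteasome genes in rows, by class from the alpha ring at the top to the assembly chaperones at the bottom; stars mark adjusted p under 0.05. Stars are few, and Psmd8 of the lid carries 3 of them.

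Promoters are shown for the members whose changes are described next. Each run is the 250 bases before the annotated start, 5' to 3' on the gene's strand, from RefSeq on build GRCm38.p6, which is not the build of the counts. Of 46 members 39 had a promoter in that table; Psmb1, Psmb2, Psmb7, Psmc3, Psmd3, Psmd7 and Psmg2 had none. Capitals mark matches on either strand to TGACNNNGC (the antioxidant response element core, bound by NRF1 and NRF2), GAAA, any 2 bases, then GAAA (the core of the interferon-stimulated response element) and CCAAT. Psmd8 and Psmd11 are shown because they rose in both genotypes, Psmd4 because it rose in KO, Psmb6 and Psma1 because their falls held under every setting tried, Psmd9 as the gene that fell at 3 h in WT, and Psmb10 as the immunoproteasome gene that rose in WT.
Psmd8 (chr7:29180674-29180923, minus strand): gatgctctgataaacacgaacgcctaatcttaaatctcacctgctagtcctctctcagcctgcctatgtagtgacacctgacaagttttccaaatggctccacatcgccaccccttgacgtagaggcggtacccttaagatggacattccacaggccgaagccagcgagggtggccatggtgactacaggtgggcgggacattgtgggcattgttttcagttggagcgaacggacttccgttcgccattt
Psmd11 (chr11:80428365-80428614, plus strand): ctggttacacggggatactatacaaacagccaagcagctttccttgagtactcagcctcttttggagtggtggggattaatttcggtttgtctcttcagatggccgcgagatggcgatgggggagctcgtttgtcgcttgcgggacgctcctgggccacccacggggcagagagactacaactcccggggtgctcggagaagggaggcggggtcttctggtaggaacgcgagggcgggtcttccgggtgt
Psmd4 (chr3:95042615-95042864, minus strand): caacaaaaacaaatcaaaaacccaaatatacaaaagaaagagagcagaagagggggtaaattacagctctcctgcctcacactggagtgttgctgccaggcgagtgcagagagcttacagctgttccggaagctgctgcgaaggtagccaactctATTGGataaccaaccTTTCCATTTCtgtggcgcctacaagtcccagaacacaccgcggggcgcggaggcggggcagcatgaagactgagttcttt
Psmb6 (chr11:70525107-70525356, plus strand): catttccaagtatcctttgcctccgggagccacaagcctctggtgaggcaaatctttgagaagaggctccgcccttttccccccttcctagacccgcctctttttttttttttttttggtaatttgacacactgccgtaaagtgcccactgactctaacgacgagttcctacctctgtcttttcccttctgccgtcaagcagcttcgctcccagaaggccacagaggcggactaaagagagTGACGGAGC
Psma1 (chr7:114276117-114276366, minus strand): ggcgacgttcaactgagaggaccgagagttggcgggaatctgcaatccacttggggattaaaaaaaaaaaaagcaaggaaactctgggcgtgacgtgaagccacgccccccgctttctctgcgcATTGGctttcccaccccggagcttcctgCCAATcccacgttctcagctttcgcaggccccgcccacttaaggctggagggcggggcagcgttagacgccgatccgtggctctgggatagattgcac
Psmd9 (chr5:123227940-123228189, plus strand): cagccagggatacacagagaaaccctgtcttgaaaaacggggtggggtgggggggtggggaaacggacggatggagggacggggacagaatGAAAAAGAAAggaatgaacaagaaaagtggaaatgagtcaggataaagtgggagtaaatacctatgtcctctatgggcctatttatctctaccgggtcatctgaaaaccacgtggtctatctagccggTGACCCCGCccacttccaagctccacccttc
Psmb10 (chr8:105938393-105938642, minus strand): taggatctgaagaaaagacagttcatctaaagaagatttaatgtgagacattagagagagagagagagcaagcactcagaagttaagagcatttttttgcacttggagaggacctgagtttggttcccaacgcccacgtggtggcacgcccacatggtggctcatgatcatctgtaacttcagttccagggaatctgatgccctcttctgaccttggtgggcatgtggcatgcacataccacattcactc
The antioxidant core was found in the window (250 bases before and 50 after the start) of 6 of 39 members (15.4%), against 14.0% of 27025 genes. The interferon core was found in 5 of 39 (12.8%), against 3.99%, and CCAAT in 13 of 39 (33.3%), against 41.1%. The 5 were Psmb3, Psmd4, Psmd9, Psme1 and Psmg4, and 0 of 3 immunoproteasome genes held the interferon core. In Psme1 and Psmg4 it lies after the start, at 10 and 16. Psmd9 holds both the antioxidant core, at -31 from the start, and the interferon core, at -159. Psmd8, Psmd11 and Psmb10 hold none of the 3 in these windows, and Psmb6 holds the antioxidant core at -9. A match is a description of letters, not of a bound site.

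Of the lid, 2 genes rose in both genotypes at 12 h. Psmd8, a lid subunit needed to complete lid assembly, had 56.6, 65.3 and 49.6 CPM in KO 12 h livers, against 35.1, 42.8 and 39.2 CPM in KO 0 h livers. All 3 later livers were above all 3 earlier ones, and the log2 fold change was 0.55, SE 0.129, adjusted p = 0.00143. In WT 12 h livers Psmd8 had 50.3, 48.4 and 60.2 CPM, against 44.2, 35.1 and 36.6 CPM in WT 0 h livers (0.45, SE 0.130, adjusted p = 0.00991). Psmd8 was also higher than at 3 h in KO (0.42, SE 0.129, adjusted p = 0.0267) and in WT (0.39, SE 0.130, adjusted p = 0.0443), as the 1 member of 45 called in each, against 12.9% and 12.8% of all genes (7.84% and 7.43% higher). Its change in KO at 12 h lost its call under 1 of 15 other settings, library size alone (adjusted p = 0.0841). In WT it was lost without WT 0 h replicate 3 (0.0546) or WT 12 h replicate 3 (0.0939), as well as under library size alone (0.612), that scaling without ribosomal RNA loci (0.115) and no low-count filter (0.0804). The calls against 3 h were lost more often, in KO under 8 of 15 settings and in WT under 11 of 16.

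Psmd11, a lid subunit known to limit proteasome assembly, had 56.3, 62.6 and 61.8 CPM in KO 12 h livers, against 47.0, 53.6 and 46.4 CPM in KO 0 h livers (0.30, SE 0.110, adjusted p = 0.0406). In WT 12 h livers it had 51.6, 55.9 and 57.1 CPM, against 49.4, 41.8 and 40.4 CPM in WT 0 h livers (0.32, SE 0.112, adjusted p = 0.0324). The groups did not overlap in either genotype. These changes were small. The KO call was lost without KO 0 h replicate 1 (0.130) or 3 (0.123) and without KO 12 h replicate 2 (0.129) or 3 (0.0953), and the WT call without WT 0 h replicate 2 (0.0789) or 3 (0.168) and without WT 12 h replicate 2 (0.0813) or 3 (0.112), as adjusted p. With library size alone the WT change turned to -0.032. The other 6 lid genes did not pass at 12 h in either genotype. Among them are Psmd14, the deubiquitinase of the lid, at 0.079 in KO and 0.15 in WT, and Psmd7, its partner, at -0.058 and 0.29.

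The base held calls in both directions. Psmd4, a receptor that captures ubiquitin chains, had 77.1, 67.3 and 62.5 CPM in KO 12 h livers, against 48.1, 52.4 and 40.6 CPM in KO 0 h livers. The groups did not overlap (0.56, SE 0.152, adjusted p = 0.00597), and the call was lost under 1 of 15 settings, library size alone (0.126). Psmd4 in WT 12 h livers had 52.8, 47.0 and 50.3 CPM, within the 40.2, 60.7 and 41.0 CPM of WT 0 h livers (0.091, SE 0.155, adjusted p = 0.720). The difference between these responses did not pass (0.46, SE 0.217, adjusted p = 0.467).

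Psmc3, an ATPase of the base, went the other way. It had 44.8, 30.2 and 41.2 CPM in KO 12 h livers, against 56.2, 56.9 and 47.4 CPM in KO 0 h livers (-0.47, SE 0.140, adjusted p = 0.0112), and at 3 h 38.9, 39.0 and 41.4 CPM (-0.43, SE 0.135, adjusted p = 0.0392). The 12 h call was lost without KO 0 h replicate 2 (adjusted p = 0.0527) or KO 12 h replicate 2 (0.133). At 3 h it was lost without each of 5 libraries, KO 0 h replicates 1 (0.130) and 2 (0.172) and KO 3 h replicates 1 (0.108), 2 (0.128) and 3 (0.108), and with DESeq2 (0.0599). Psmc3 in WT 12 h livers had 38.0, 36.7 and 40.2 CPM, against 51.6, 57.6 and 40.0 CPM in WT 0 h livers, and missed the threshold (-0.37, SE 0.141, adjusted p = 0.0508). Psmc6, another of these ATPases, was lower in WT at 12 h, with 47.8, 48.1 and 44.9 CPM against 64.3, 50.7 and 58.8 CPM in WT 0 h livers (-0.31, SE 0.116, adjusted p = 0.0473). Of 15 settings 11 lost that call, among them the removal of any WT 0 h or WT 12 h replicate but WT 0 h replicate 2, with adjusted p from 0.0841 to 0.229. The median change of the 9 base genes was -0.078 in KO and -0.23 in WT at 12 h, beside 0.056 and 0.082 for the 8 lid genes.

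In the core particle 1 gene fell in each genotype, and these 2 calls held under all 15 other settings. Psmb6, the constitutive subunit with the caspase-like site, had 25.2, 22.8 and 18.5 CPM in KO 12 h livers, against 30.9, 35.7 and 32.9 CPM in KO 0 h livers, with no overlap (-0.57, SE 0.145, adjusted p = 0.00316). Its KO livers at 1 h had 26.3, 25.1 and 28.1 CPM and at 3 h 27.7, 27.9 and 22.9 CPM, which were also below all KO 0 h livers but missed the threshold (adjusted p = 0.145 and 0.110). Psmb6 in WT 12 h livers had 26.6, 28.3 and 27.5 CPM, within the 32.2, 22.5 and 25.7 CPM of WT 0 h livers (0.025, SE 0.144, adjusted p = 0.924). The KO 0 h livers were themselves higher than 2 of the 3 WT 0 h livers, and the difference between the responses did not pass (-0.60, SE 0.204, adjusted p = 0.313).

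Psma1, an alpha subunit, had 22.9, 25.3 and 35.97 CPM in KO 12 h livers, against 31.8, 32.5 and 33.7 CPM in KO 0 h livers (-0.23, SE 0.151, adjusted p = 0.258). The third KO 12 h liver was above all KO 0 h livers and the other two were below them. In WT 12 h livers Psma1 fell, with 19.0, 20.0 and 22.0 CPM against 30.7, 37.0 and 26.1 CPM in WT 0 h livers and no overlap (-0.61, SE 0.157, adjusted p = 0.00434). Psma4, the highest gene per kb, was uneven among KO 12 h livers, with 99.4, 43.0 and 53.8 CPM, against 90.6, 95.5 and 82.8 CPM in KO 0 h livers (-0.46, SE 0.233, adjusted p = 0.152). It was singled out after its values were seen. The catalytic Psmb5 had 3.22, 0.983 and 2.79 CPM in KO 12 h livers and 2.85, 4.33 and 2.73 CPM in KO 0 h livers, too few reads for a firm statement (-0.55, SE 0.381, adjusted p = 0.300), and Psmb7 had -0.14 in KO and -0.10 in WT without passing. The smallest p among the alpha genes at KO 12 h was that of Psma2 (0.31, SE 0.151, adjusted p = 0.130), and among the beta genes at WT 12 h that of Psmb4 (-0.25, SE 0.155, adjusted p = 0.248). Of 14 core genes 12 had a negative change in KO at 12 h and 8 in WT, with medians of -0.15 and -0.079. Of all genes tested 50.2% were negative in KO and 50.9% in WT. With the base and lid added, 20 of 31 genes were negative in KO, and 16 without KO 0 h replicate 2. Under library size alone 26 of these 31 were negative, beside 66.8% of all genes.

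**Figure D3:**
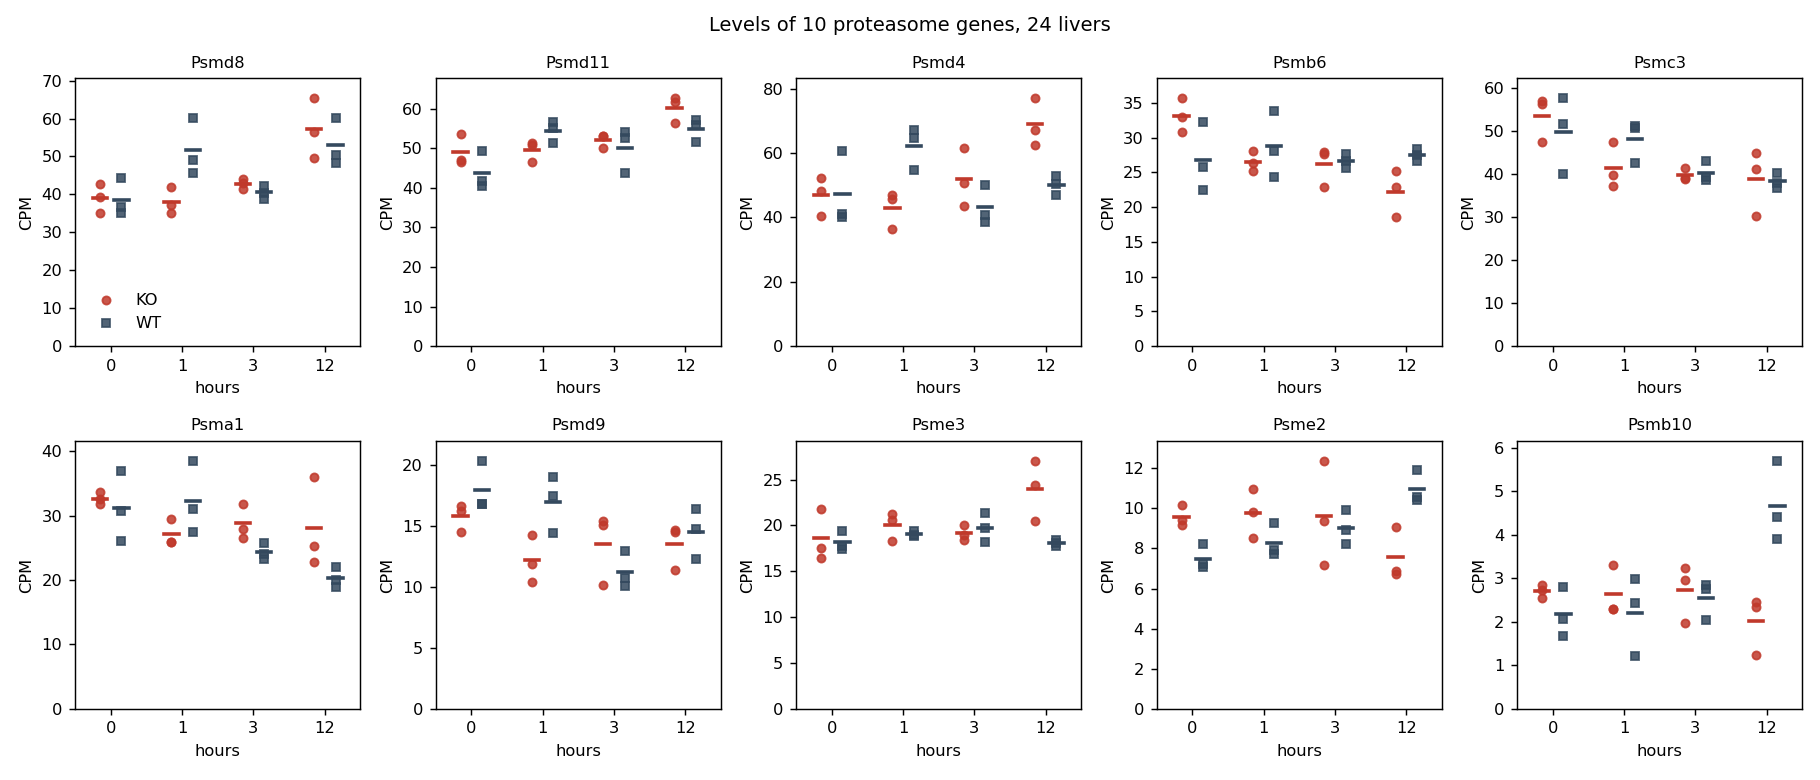
CPM (vertical axes, from 0) of 10 proteasome genes in every liver at 0, 1, 3 and 12 h; red circles are KO livers, dark squares WT livers, bars the means of 3 mice. Psmd8 at 12 h lies above 0 h in both genotypes, Psmb6 falls to 18.5 to 25.2 CPM in KO at 12 h, and Psmb10 and Psme2 at 12 h lie on opposite sides of 0 h in KO and WT.

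The immunoproteasome genes were scarce, and 1 of 3 was called, in WT. Psmb10, which replaces Psmb7, had 2.34, 1.23 and 2.44 CPM in KO 12 h livers, from 5 to 8 reads each, against 2.85, 2.54 and 2.73 CPM in KO 0 h livers (-0.47, SE 0.372, adjusted p = 0.366). In WT 12 h livers it had 5.69, 3.89 and 4.41 CPM, from 14 to 18 reads each, against 2.06, 1.68 and 2.80 CPM in WT 0 h livers. Every KO 12 h liver lay below the KO 0 h livers and every WT 12 h liver above the WT 0 h livers. In WT Psmb10 rose (1.05, SE 0.322, adjusted p = 0.0155), and 4 of 15 settings ended the call: leaving out WT 0 h replicate 1 (adjusted p = 0.0553) or WT 12 h replicate 1 (0.0869), library size alone (0.0887) and no low-count filter (0.0696). All KO 12 h livers were below all WT 12 h livers, but the difference did not pass (-1.24, SE 0.373, adjusted p = 0.198). Psmb8, which replaces Psmb5, had 5.86, 5.65 and 6.64 CPM in KO 12 h livers, against 4.12, 5.07 and 2.98 CPM in KO 0 h livers, and missed (0.58, SE 0.249, adjusted p = 0.0800). In WT it had 8.54, 5.28 and 6.48 CPM at 12 h, against 6.96, 5.68 and 6.40 CPM at 0 h (0.069, SE 0.229, adjusted p = 0.889). Psmb9, which replaces Psmb6, had 1.17, 1.47 and 0.349 CPM in KO 12 h livers, against 1.90, 1.64 and 0.621 CPM in KO 0 h livers. In WT it had 2.21, 0.556 and 1.30 CPM at 12 h, against 1.93, 1.47 and 3.06 CPM at 0 h. These rest on 1 to 23 reads a library, and changes of this size were not detectable at that depth (-0.35, SE 0.571, adjusted p = 0.692 in KO and -0.73, SE 0.503, adjusted p = 0.304 in WT). Of 9 genes of MHC class I presentation 2 rose and none fell at 12 h in each genotype, beside 15.1% of all genes higher in KO and 13.4% in WT. H2-D1, a class I heavy chain, rose by 0.56 in KO and 0.41 in WT, H2-K1 rose by 0.32 in KO and B2m rose by 0.36 in WT. The KO call of H2-D1 was lost under 1 of 15 settings, its WT call under 7, that of H2-K1 under 10 and that of B2m under 6, which turned to -0.0048 under library size alone. H2-D1 and H2-K1 are close relatives that can share reads.

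Immune cells also carry immunoproteasomes, so their markers are given beside these genes. The 6 neutrophil and monocyte markers summed to 3.22 to 3.84 CPM in KO 12 h livers and 0.597 to 1.27 CPM in KO 0 h livers, and to 3.11 to 8.34 CPM in WT 12 h livers and 0.773 to 2.52 CPM in WT 0 h livers; none was high enough to be tested, and S100a8, S100a9, Ly6g, Ly6c2 and Ccr2 were at 0 in at least 1 library. The 9 macrophage markers summed to 70.8 to 103.7 CPM in KO 12 h and 59.7 to 80.9 CPM in KO 0 h livers. In KO 1 of 9 was higher, beside 15.1% of all genes. The sum was 89.5 to 107.6 CPM in WT 12 h and 76.4 to 145.5 CPM in WT 0 h livers. In WT 1 of 9 was lower, beside 12.2% of all genes. B cell markers summed to at most 2.79 CPM and T and NK cell markers to at most 1.38 CPM in any library, with Trac at 0 throughout. The part of these cells in the changes of Psmb10 was not tested.

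Among the activators, which open the core particle without a 19S cap, Psme2 (a subunit of PA28, induced by interferon) had 6.74, 6.88 and 9.08 CPM in KO 12 h livers, against 9.18, 9.40 and 10.2 CPM in KO 0 h livers, all 3 lower but not called (-0.36, SE 0.200, adjusted p = 0.182). In WT 12 h livers it rose, with 10.4, 10.6 and 11.9 CPM against 7.22, 8.20 and 7.06 CPM in WT 0 h livers and no overlap (0.56, SE 0.193, adjusted p = 0.0300). That call was lost under 8 of 15 settings, among them DESeq2 (0.0539) and the removal of WT 0 h replicate 1 (0.0807) or 3 (0.0996) or of WT 12 h replicate 2 (0.0523) or 3 (0.122). Its partner Psme1 had 21.4, 13.3 and 24.1 CPM in KO 12 h and 24.2, 20.4 and 14.2 CPM in KO 0 h livers, and 25.9, 24.5 and 27.8 CPM in WT 12 h and 22.3, 35.3 and 20.0 CPM in WT 0 h livers. Neither change of Psme1 passed (-0.015 and 0.035). Psme3, the nuclear activator, was called in KO, with 20.5, 27.02 and 24.4 CPM at 12 h against 17.6, 21.8 and 16.4 CPM at 0 h, although the groups overlap (0.38, SE 0.134, adjusted p = 0.0342). It was lost under 8 of 15 settings, among them the removal of KO 0 h replicate 1 (0.109) or 3 (0.153) or of KO 12 h replicate 2 (0.215) or 3 (0.0746). Psme3 in WT 12 h livers had 18.0, 17.8 and 18.4 CPM, against 17.8, 19.3 and 17.5 CPM in WT 0 h livers. Psme4, the large activator PA200, had a log2 difference of -0.19 in KO and -0.25 in WT at 12 h. The inhibitor Psmf1 had 0.27 in KO and 0.057 in WT. None of these passed, and at 1 and 3 h no immunoproteasome, activator or inhibitor gene was called in either genotype.

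Of 6 assembly chaperones tested, 1 passed. Psmd9, which helps to build the base, had 10.2, 15.5 and 15.1 CPM in KO 3 h livers, against 14.6, 16.3 and 16.6 CPM in KO 0 h livers (-0.24, SE 0.167, adjusted p = 0.431). In WT it fell at 3 h, with 12.9, 10.8 and 10.1 CPM against 20.4, 16.8 and 16.8 CPM in WT 0 h livers and no overlap (-0.67, SE 0.168, adjusted p = 0.00597). The call was lost without WT 0 h replicate 1 (0.0546) and without both WT 3 h replicates 2 and 3 (0.261). Psmd10 (gankyrin) had 1.90 CPM on average and a log2 difference of -0.66 in KO and -0.72 in WT at 12 h, neither past the threshold.

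At 1 h only Psmd8 passed, in WT. KO 1 h livers had 37.1, 35.01 and 42.1 CPM, against 35.1, 42.8 and 39.2 CPM in KO 0 h livers, which overlap. WT 1 h livers had 45.7, 49.1 and 60.2 CPM, against 44.2, 35.1 and 36.6 CPM in WT 0 h livers, all higher (0.41, SE 0.126, adjusted p = 0.0381). The call was lost under 8 of 15 settings, among them the removal of WT 0 h replicate 2 (0.146) or 3 (0.142) or of WT 1 h replicate 2 (0.0606) or 3 (0.228). Without WT 0 h replicate 1, 3 members passed in WT at 1 h, and without KO 1 h replicate 1, which goes against its Egfr label, Psmc3 passed in KO at 1 h. The smallest p of other classes in WT at 1 h were those of Psmd4 (0.41, SE 0.149, adjusted p = 0.0950) and Psmb2 (0.39, SE 0.141, adjusted p = 0.0943). At 3 h in WT they were those of Psmc5 (-0.42, SE 0.164, adjusted p = 0.0881), Psma6 (-0.32, SE 0.131, adjusted p = 0.103) and Psmd12 (-0.22, SE 0.107, adjusted p = 0.181), none of them called. Without WT 3 h replicates 2 and 3 these were -0.37, -0.19 and -0.23, with adjusted p of 0.441, 0.658 and 0.467.

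The second question was whether KO livers differ from WT livers at the same time. No proteasome gene passed at any time. The share of all genes called was 0.0151% at 0 h, 0.492% at 1 h, 0.977% at 3 h and 0.0530% at 12 h. Unadjusted p was under 0.05 in edgeR for 3 of 45 genes at 0 h, 6 at 1 h, 0 at 3 h (1 without WT 3 h replicates 2 and 3) and 9 at 12 h, and DESeq2 called 0 at each time. The tests of the difference between responses also called none, against 0.454% of all genes at 1 h, 0.151% at 3 h and 0.0227% at 12 h. In these tests 7 genes were under 0.05 unadjusted at 1 h, 1 at 3 h and 5 at 12 h in edgeR, and DESeq2 called 0. Shares of all genes at unadjusted p under 0.05 were not computed, so the unadjusted counts have no background and show no excess. Averaged over the 4 times, none of 13204 genes passed in edgeR, and 1 member had an unadjusted p under 0.05; DESeq2 called 0 members. For the averaged difference the 95% interval of all 45 members lay within 1 log2 unit of 0.

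By sign, the core and 19S genes leaned to lower levels in KO at 1 h. Of these 31 genes 30 had a negative KO over WT change, with a median of -0.19, while 48.3% of all genes tested were negative and their median was 0.011. The sum over the 31 genes was 1176, 1087 and 1095 CPM in KO 1 h livers and 1173, 1275 and 1378 CPM in WT 1 h livers, so that all but the highest KO liver lay below all WT livers. Without KO 1 h replicate 1, 30 of 31 were still negative, with a median of -0.22, and over the 6 fits that each leave out 1 library the number ran from 27 to 30. The medians of these fits ran from -0.24 without WT 1 h replicate 1 to -0.13 without WT 1 h replicate 3. All 17 genes of the 19S particle were on the lower side, the lid with a median of -0.25 and the base with -0.17. Against their own 0 h, the 31 genes had a median of -0.16 in KO (29 negative) and 0.056 in WT (8 negative). These comparisons share the KO 1 h or WT 1 h livers, and without KO 0 h replicate 2 the KO median was -0.083. Without KO 1 h replicate 1 it was -0.18, with 29 negative. Of the WT libraries, leaving out WT 1 h replicate 1 moved the WT median to 0.17, WT 0 h replicate 2 to 0.14, WT 0 h replicate 1 to 0.10 and WT 1 h replicate 2 to 0.088. Leaving out WT 0 h replicate 3 or WT 1 h replicate 3 lowered it to 0.049, with 12 of 31 negative in each. No single gene passed: the nearest were Psmd4, with 36.4, 45.8 and 46.9 CPM in KO 1 h and 54.9, 64.8 and 67.3 CPM in WT 1 h livers (-0.53, SE 0.149, adjusted p = 0.110), and Psmd8, with 37.1, 35.01 and 42.1 CPM in KO 1 h and 45.7, 49.1 and 60.2 CPM in WT 1 h livers (-0.44, SE 0.125, adjusted p = 0.124). With no low-count filter Psmd4 was called, and without KO 1 h replicate 1 none was. Livers of both genotypes did not overlap for 7 of the 31 genes, all lower in KO, against 7.72% of all genes lower. The macrophage marker sum was 69.5 to 99.8 CPM in KO 1 h and 55.4 to 61.8 CPM in WT 1 h livers, and its part in this difference was not tested.

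At 12 h the lean was the other way. Of the 31 core and 19S genes 22 were higher in KO than in WT, with a median of 0.11, beside 0.0072 over all genes. Without WT 12 h replicate 2 the median was 0.045. By class the smallest p were those of Psmd4 (0.47, SE 0.157, adjusted p = 0.279), Psmd3, a scaffold of the lid (0.45, SE 0.159, adjusted p = 0.303), Psma1 (0.45, SE 0.166, adjusted p = 0.322) and Psmb6 (-0.30, SE 0.154, adjusted p = 0.509), the last lower in KO. The 3 immunoproteasome genes were lower in KO, Psmb10 furthest, and none passed. At 0 h the smallest p was that of Psmb8, with 4.12, 5.07 and 2.98 CPM in KO 0 h and 6.96, 5.68 and 6.40 CPM in WT 0 h livers (-0.67, SE 0.221, adjusted p = 0.362). On the log2 scale of KO over WT, Psme2 had 0.37 at 0 h and -0.56 at 12 h, Psme3 had 0.033 and 0.41, and Psme1, Psme4 and Psmf1 lay between -0.44 and 0.16 at all 4 times, and none of these passed.

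**Figure D4:**
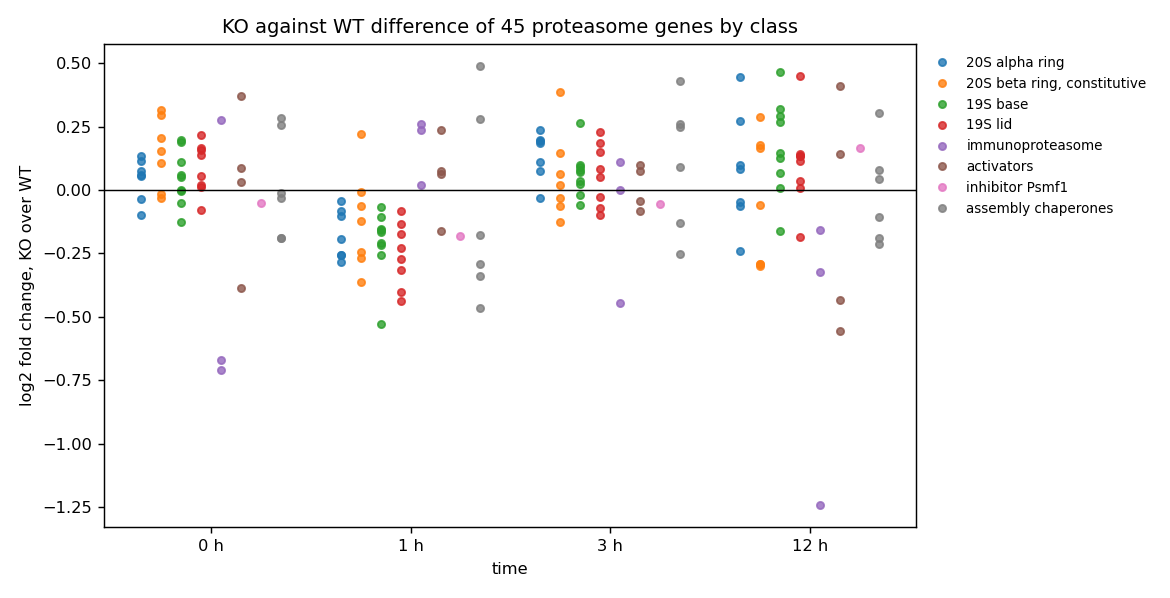
Log2 fold change of KO over WT (vertical axis; the line marks 0) of 45 proteasome genes at 0, 1, 3 and 12 h, 1 point per gene, coloured by class. At 1 h nearly all alpha, beta, base and lid points lie below 0, with a median of -0.19; Psmb10 at 12 h is the lowest point at -1.24; no point passed the test.

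The ubiquitin gene Ubb and the zinc-finger genes Zfand5 and Zfand2a rose in both genotypes at 12 h, and Nfe2l1 fell. Of 27 tested genes of a list of ubiquitin, adaptor and regulator genes, 3 rose and 1 fell in KO at 12 h and 4 rose and 1 fell in WT, beside 28.8% and 25.6% of all genes called in either direction. Ubb, a polyubiquitin gene induced by stress, had 89.1, 88.7 and 74.7 CPM in KO 12 h livers, against 53.0, 55.7 and 52.6 CPM in KO 0 h livers (0.65, SE 0.123, adjusted p = 0.000148), and 95.8, 81.7 and 97.5 CPM in WT 12 h livers, against 61.6, 46.2 and 54.8 CPM in WT 0 h livers (0.75, SE 0.123, adjusted p = 2.21e-05). The groups did not overlap in either genotype. Zfand5, whose protein binds the proteasome and speeds its work, had 141, 94.8 and 128 CPM in KO 12 h and 30.1, 29.8 and 31.3 CPM in KO 0 h livers (1.99, SE 0.142, adjusted p = 3.25e-12), and 132, 113 and 129 CPM in WT 12 h and 32.9, 23.3 and 32.1 CPM in WT 0 h livers (2.07, SE 0.142, adjusted p = 1.36e-12). It rose at 1 and 3 h in both genotypes as well, in calls kept under all settings, also without WT 3 h replicates 2 and 3. Zfand2a, an adaptor induced by arsenite, rose by 1.58 in KO and 1.55 in WT. Each of these 3 genes held its 12 h call under all 15 settings in both genotypes. The KO and WT rises of Zfand5 and Zfand2a were larger than that of Psmb10, the largest of a proteasome gene.

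Nfe2l1, the gene of NRF1, was lower. It had 42.8, 39.3 and 37.4 CPM in KO 12 h livers, against 59.8, 56.6 and 49.4 CPM in KO 0 h livers (-0.47, SE 0.114, adjusted p = 0.00216), and 39.9, 42.0 and 43.3 CPM in WT 12 h livers, against 52.2, 57.6 and 51.8 CPM in WT 0 h livers (-0.37, SE 0.114, adjusted p = 0.0171). The groups did not overlap in either genotype. The WT call was lost without WT 0 h replicate 2 (0.0659) or WT 12 h replicate 1 (0.0750). At 3 h it was lower in WT, with 36.9, 41.6 and 34.2 CPM (-0.52, SE 0.111, adjusted p = 0.00148), a call kept under all 16 settings. NRF1 is controlled mainly at the protein level, which was not measured. Nfe2l2, the gene of NRF2, had 40.7, 30.7 and 35.6 CPM in KO 12 h livers, against 38.9, 41.2 and 36.5 CPM in KO 0 h livers (-0.13, not called). It rose in WT 12 h livers, to 36.4, 47.5 and 38.9 CPM, against 27.2, 29.4 and 27.05 CPM in WT 0 h livers (0.56, SE 0.125, adjusted p = 0.00114), a call lost under library size alone (0.20, adjusted p = 0.227). All KO 0 h livers were above all WT 0 h livers, and at 12 h the genotypes overlapped. The difference between the responses of Nfe2l2 is not given here, so its rise cannot be called particular to WT.

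**Figure D5:**
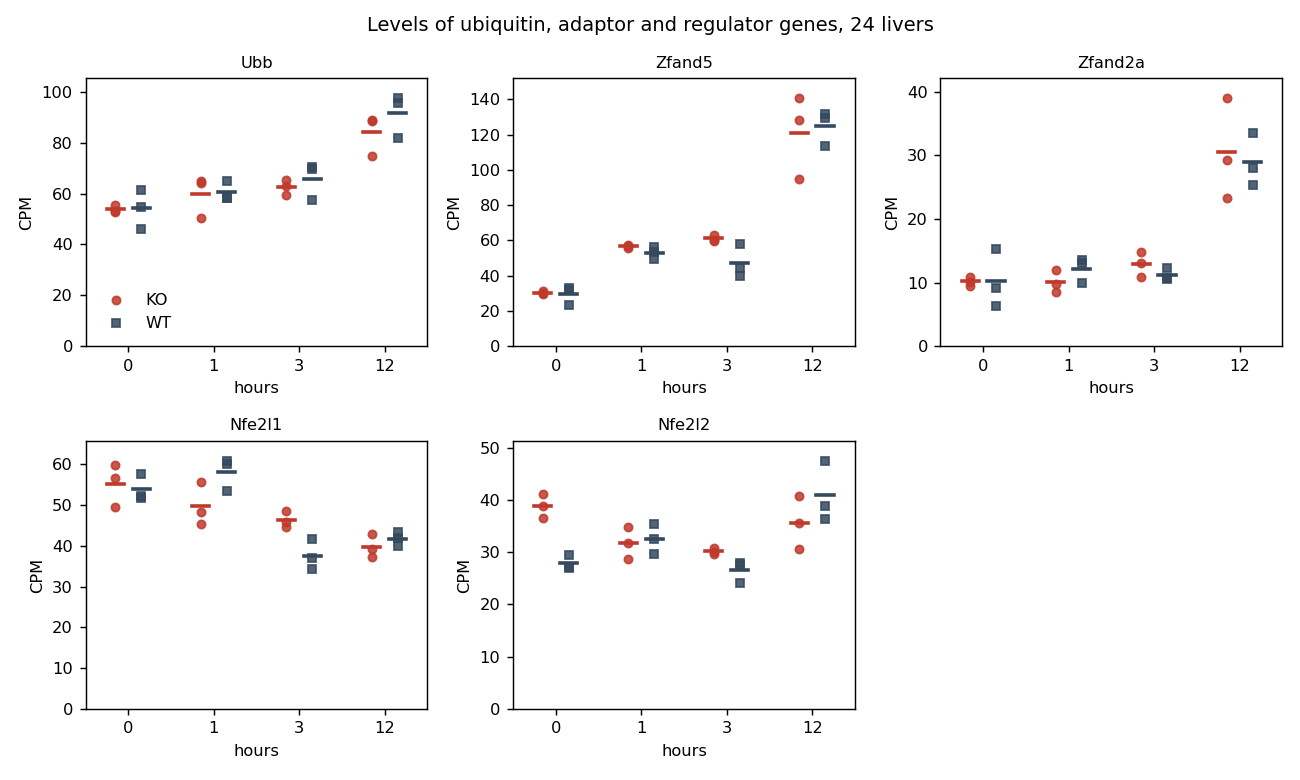
CPM (vertical axes, from 0) of 5 genes that supply or regulate the proteasome, in every liver at 0, 1, 3 and 12 h; red circles are KO livers, dark squares WT livers, bars the means of 3 mice. Zfand5 climbs in both genotypes to 94.8 CPM or more at 12 h, while Nfe2l1 at 12 h lies below 0 h in both.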

How the data were processed

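Liver RNA was sequenced after poly(A) selection in 24 mice. The authors deposited raw counts per gene for each library, made with STAR on build mm39 per the submitters' processing notes. The aligner's version and the gene annotation were not given in the sources used here. The column that counts reads of either strand was used. The 4 lines that name no gene were left out of library sizes and tests; in them, multimapping reads took 7.23% to 8.70% of all reads and ambiguous reads 26.3% to 30.8%. Mitochondrial ribosomal RNA took 39.6% to 50.4% of gene counts, most in the 12 h libraries, which lowers the depth left for other genes.

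Counts were filtered with edgeR 4.0.16 (filterByExpr over the 8 groups), scaled by TMM and fitted with the robust quasi-likelihood test in R 4.3.3, with all 24 libraries in 1 model and no covariate. P-values were Benjamini-Hochberg adjusted over 13204 genes. Fold changes are log2, the first-named group over the second, and SEs come from the same fit. The fit was also run on simulated counts, with the same spread for every gene and changes planted in well-counted genes. That run covers neither genes with few reads nor changes smaller than those planted. Alternatives were RLE scaling, library size alone, 2 other filters, DESeq2 1.42.0, only the groups compared, the gene-strand column, the replicate number as a block, each library left out, and WT 3 h replicates 2 and 3 left out together. Library size alone without the ribosomal RNA loci was added after seeing the data.

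Genes and lists were chosen with earlier results of these data known. Named are up to 6 called genes per direction and comparison, the gene of each class with the smallest p, all immunoproteasome, activator and inhibitor genes, and up to 5 genes of each companion list; some with no call are left out for length, and some members of the companion lists are not reported here. The labels describe individual mice, and p-values set each difference against the spread between mice, estimated over all 8 groups together. Promoter letters are from RefSeq on GRCm38.p6 and exon lengths from GENCODE M21. No data were removed for batch, as the labels give none.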

Additional observations from a re-analysis of the deposited data

Results flagged for a closer look

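Psmb10, an immunoproteasome subunit, was flagged because all KO livers at 12 h lay below, and all WT livers at 12 h above, every 0 h liver of their own genotype. Opposite moves of this kind were looked for in all kept genes at each later time. At 12 h 20.6% of all genes tested lay below in KO and 19.8% above in WT. The share of all genes with both was not computed, so the pattern cannot be called particular to the genes flagged. The difference between the KO and the WT response was -1.52 on the log2 scale (SE 0.489), but its adjusted p was 0.289 (edgeR quasi-likelihood test over all genes). The libraries held 5 to 22 reads of Psmb10 each.

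Psme2, a PA28 activator subunit, was flagged for the same pattern at 12 h. The difference between its responses was -0.93 (SE 0.278, adjusted p = 0.228 in the same test). Psme2 can share reads with the near-identical Psme2b, which was not measured.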

How the results depend on the processing

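Each setting below replaced the TMM scaling, filter, column, model or libraries, and "without ribosomal RNA loci" means library size alone after removing those loci. Counts of proteasome genes called (of 45) moved by more than 1.5 times as follows. KO 1 h against 0 h gave 0 and, without ribosomal RNA loci, 1. KO 12 h against 0 h gave 6, and 18 with library size alone; its other settings gave 4 to 9 (9 without ribosomal RNA loci, 4 with only the groups compared). WT 12 h against 0 h gave 6, with 22 under library size alone, 12 without ribosomal RNA loci and 2 with no filter; its other settings gave 4 to 7 (4 with DESeq2 or only the groups compared). KO 3 h against 0 h gave 1, and 0 with DESeq2, the gene-strand column, no filter or at least 1 CPM in 3 libraries. WT 1 h against 0 h gave 1, and 0 with library size alone, without ribosomal RNA loci or with only the groups compared. WT 3 h against 0 h gave 1, with 5 under library size alone, 9 without ribosomal RNA loci and 0 when WT 3 h replicates 2 and 3 were left out together. KO 12 h against 3 h gave 1, with 5 under library size alone, 0 without ribosomal RNA loci and 2 with the replicate block. WT 12 h against 3 h gave 1, with 7 under library size alone and 0 without ribosomal RNA loci, with no filter, at least 1 CPM in 3 libraries, the replicate block or WT 3 h replicates 2 and 3 left out. KO against WT at 1 h gave 0, and 1 (Psmd4) with no filter. The cause of these moves was not tested.

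Library size alone shifts the median of all genes by -0.356 at 12 h in WT and -0.256 in KO, and the share of all calls that are higher to 17.6% in WT and 26.3% in KO, against 52.4% and 52.3% with TMM. Set against all genes, the median of the proteasome genes at WT 12 h was -0.07 under both scalings. Psmd11 and B2m at WT 12 h turned to -0.032 and -0.0048 under library size alone.

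Leaving out 1 library gave 0 to 1 calls for KO 1 h against 0 h, 3 to 8 for KO 12 h against 0 h (3 without KO 12 h replicate 2, 8 without replicate 1), 0 to 1 for KO 3 h against 0 h, 0 to 3 for WT 1 h and for WT 3 h against 0 h, 2 to 5 for WT 12 h against 0 h (2 without WT 12 h replicate 3, 3 without WT 12 h replicate 2 or WT 0 h replicate 1), and 0 to 1 for either comparison of 12 h with 3 h. The other comparisons gave 0 calls in each of these fits.

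The replicate numbers were not taken to pair the livers, since the labels tie no number to a shared animal or batch. Deviations of same-numbered livers correlated at 0.0117 on average over 84 pairs, those of other livers at -0.0059 over 168, and 13 of 24 livers correlated best with one of their own number, where 8 would if numbers carried nothing. Apart from the counts above, the block also lost the call of Psmc6 at WT 12 h.

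With 1 to 54 reads a library, changes of Psmb8, Psmb9, Psmb10, Psmb5, Psmd10 and Psmg4 are poorly bounded.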

Other observations

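Irf1, a transcription factor that drives immunoproteasome and MHC class I genes, was lower in WT livers at 1 h (log2 fold change -1.56, adjusted p = 0.000222) and at 3 h (-1.43, adjusted p = 0.000423, kept under all 16 settings with changes of -1.63 to -1.33, the removal of WT 3 h replicates 2 and 3 together among them) and in KO livers at 3 h (-0.87, adjusted p = 0.0318, a call lost under 6 of 15 settings), each against 0 h in the edgeR test. From 3 h to 12 h Irf1 rose in both genotypes. Over the other settings this log2 change was 1.12 to 1.63 in KO and 1.64 to 2.17 in WT. No immunoproteasome gene was called at 1 or 3 h against 0 h, nor for the step from 3 h to 12 h. Of the MHC class I genes, H2-D1 was higher in WT at 3 h (0.48, adjusted p = 0.0160 in the edgeR test). That call was lost under 8 of 16 settings, and without WT 3 h replicates 2 and 3 the change was 0.16. From 3 h to 12 h in KO, H2-D1 rose (0.41, lost under 12 of 15 settings) and Erap1 fell (-0.37, lost under 5 of 15).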
